A study of Mus musculus with 10 samples.

Results

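A set of 9 genes of brain blood vessels and their walls was followed across the amygdala of neuropsin-/- and wild-type mice. They were chosen by name, as Cldn5, Ly6a, Pecam1, Flt1, Vtn, Col4a1, Col4a2, Abcb1a and Pdgfrb, out of 22103 genes that had at least 1 probe set annotated to a single symbol. The knockout group was 5 arrays of neuropsin-/- mice, which lack the serine protease encoded by Klk8 and had been crossed back to C57BL/6 for 12 generations. The control group was 5 arrays of wild-type C57BL/6 mice. All animals were 3 months old, received no treatment named in the labels, and were perfused with cold buffer before the amygdala was cut from a brain slice. The design text gives 15 animals per genotype with RNA of 3 animals joined, so each array was read as its own pool. The labels do not say which part of the gene was deleted, so a probe set outside that part checks nothing. The Klk8 level over 5 probe sets was 5.83 ± 0.28 in knockout and 6.22 ± 0.28 in wild type (SD, n = 5 each), a difference of -0.39 that did not pass (limma adjusted p = 0.693).

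Brain capillaries are tubes of endothelial cells sealed by tight junctions, which keep blood-borne molecules out of the tissue. Pericytes sit on the tube inside a shared basement membrane built on a network of collagen IV, and astrocyte end feet cover the outside. Endothelial efflux pumps and VEGF receptors, the pericyte receptor for PDGF, and the wall proteins made by both cell types are the usual molecular labels of this unit. On exon arrays a probe set covers about 1 exon. A gene level here is the mean log2 value of the gene's brighter probe sets. A probe set was kept where it averaged above 4.94, which is the median average of every probe set on the 10 arrays. Differences are knockout minus wild type on the log2 scale. A gene or probe set was called at a limma p, adjusted over everything tested, under 0.05.

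None of the vessel genes was called. At the gene level 0 of the 8 tested members passed, where 0.0244% of all 16367 tested genes did. At an unadjusted p under 0.05 there was 1 member, Col4a1, beside 6.98% of all genes. It was higher in the knockout, as were 2.84% of all genes at that p, and 0 members were lower, beside 4.14% of all genes. The median difference over the 8 members was -0.05, beside -0.0019 over all genes tested. By their means 6 members were lower and 2 higher in the knockout, while 49.3% of all genes were higher. The 2 higher members were the collagen IV genes. Cldn5 had only 2 of its 3 probe sets above the intensity limit, and it was tested only in the setting that accepts genes with at least 1 probe set. Of the 268 probe sets of the 9 members, 251 lay above that limit. The nearest calls in adjusted terms were Col4a1 (adjusted p = 0.693) and Col4a2 (adjusted p = 0.735).

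Wild-type arrays 4 and 5 stood apart from the other 8 arrays on the first principal component of all gene levels, at 20.5 and 23.5 against -14.2 to 7.45. Knockout arrays 4 and 5 lay on the same side of that axis, at 7.45 and 3.14, and the other 6 arrays were all below 0. Array medians over all probe sets lay between 4.95 and 5.03, and no batch is given in the labels. Member differences are therefore also given without wild-type arrays 4 and 5, which leaves the knockout arrays of those numbers in, and without arrays 4 and 5 of both genotypes, a setting added after seeing the data. In tissue RNA, fewer vessel cells and less of a transcript per cell cannot be told apart.

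**Figure D1:**
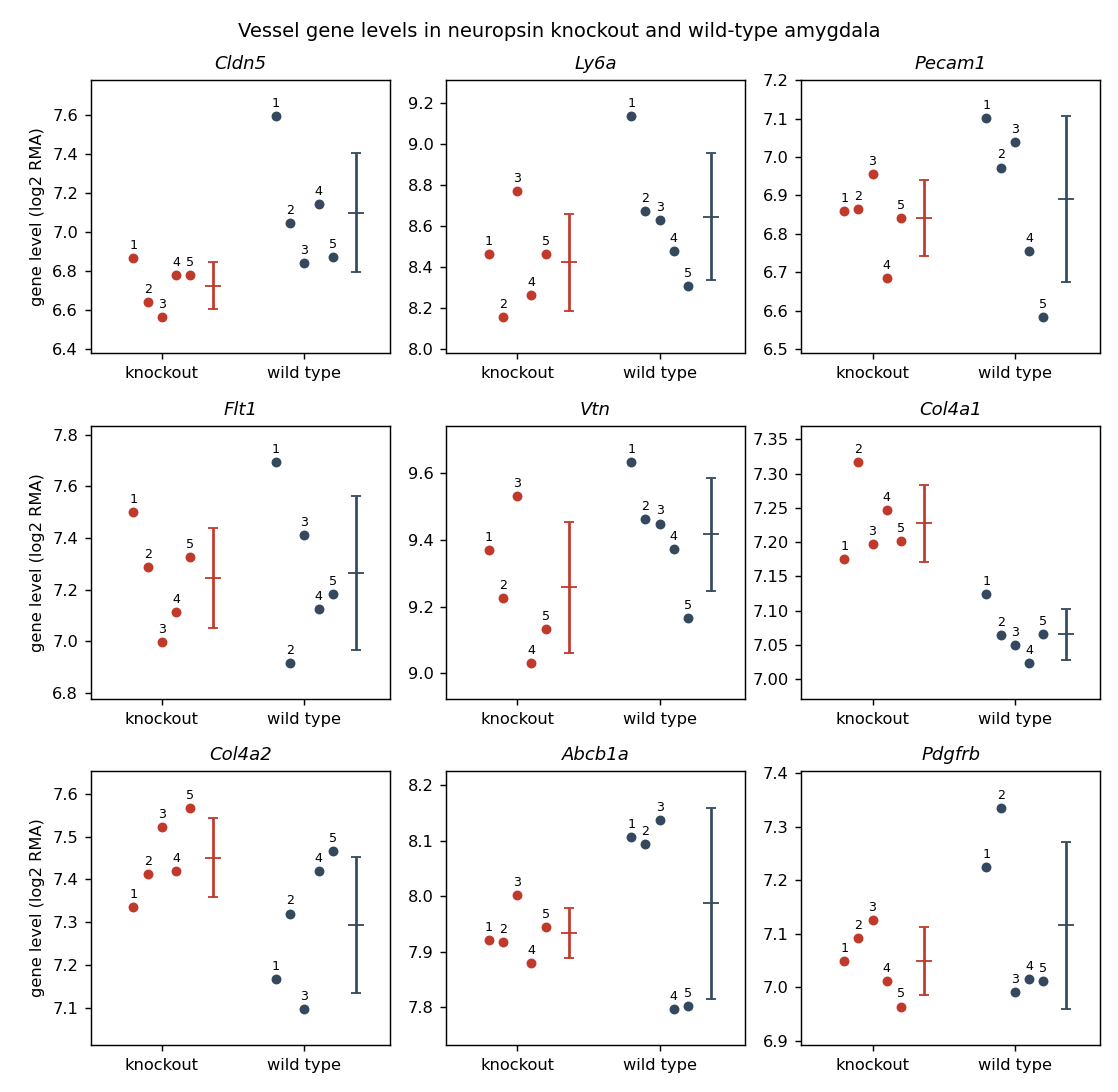
Gene level (mean log2 RMA value, y axis, own scale for each gene) of the 9 vessel genes on each array, with knockout at the left and wild type at the right of each panel. Points are arrays with their replicate number, and the bar beside them is the mean with its SD (n = 5). Col4a1 is the gene whose 5 knockout arrays all lie above its 5 wild-type arrays, and Pecam1 and Abcb1a show wild-type arrays 4 and 5 at the bottom.

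The wall proteins come first. Col4a1 and Col4a2 encode the alpha-1 and alpha-2 chains that wind together into the collagen IV of every basement membrane. They are neighbours on chromosome 8 and are read outward from a common start region on opposite strands. The annotated starts are 11312826 for Col4a1 and 11312805 for Col4a2 in GRCm38.p6, so that their first exons share 22 bases. The 150 bases before each start are printed from RefSeq, 5′ to 3′ on the gene's own strand, because these are the members with the largest upward differences and their starts lie close together. The windows have no base in common. The 22 shared bases lie between them and are not printed, and each window lies downstream of the other gene's start. Capitals mark the CCAAT box and the GC box GGGCGG, searched on both strands, so that the reverse forms ATTGG and CCGCCC are capitals too.
Col4a1 (chr8:11312827-11312976, minus strand): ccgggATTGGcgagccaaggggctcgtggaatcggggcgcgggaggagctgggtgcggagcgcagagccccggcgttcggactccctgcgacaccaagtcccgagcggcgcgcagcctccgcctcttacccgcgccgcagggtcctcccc
Col4a2 (chr8:11312655-11312804, plus strand): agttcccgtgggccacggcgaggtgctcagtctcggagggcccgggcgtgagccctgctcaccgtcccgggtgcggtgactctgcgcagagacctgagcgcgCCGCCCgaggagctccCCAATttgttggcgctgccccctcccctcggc
A CCAAT box was found 145 bases before the Col4a1 start and 32 bases before the Col4a2 start, and a GC box 48 bases before the Col4a2 start. Over all 32851 RefSeq windows of the same length, 24.5% hold a CCAAT box and 28.6% a GC box. These matches describe letters in a window and nothing about a factor.

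Col4a1 stood at 7.18, 7.32, 7.20, 7.25 and 7.20 on knockout arrays 1 to 5, against 7.12, 7.06, 7.05, 7.02 and 7.07 on wild-type arrays 1 to 5. The groups did not overlap, which was so for 1 of the 8 tested members and for 1.55% of all genes. The difference was 0.16 (SE 0.06, 95% confidence interval 0.02 to 0.30), or 1.12-fold, and it was not called (limma adjusted p = 0.693, higher on 5 of 5 arrays). Over 21 other settings of the processing it ranged from 0.14 to 0.18.

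Col4a2 had levels of 7.33, 7.41, 7.52, 7.42 and 7.57 on the knockout arrays, against 7.17, 7.32, 7.10, 7.42 and 7.47 on the wild-type arrays. Wild-type arrays 4 and 5 lay inside the knockout range, and wild-type arrays 1 to 3 were below all knockout arrays. The difference was 0.16 (SE 0.09, 95% confidence interval -0.03 to 0.34, limma adjusted p = 0.735). Without wild-type arrays 4 and 5 it was 0.26 (adjusted p = 0.284).

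Vtn encodes vitronectin, an adhesive glycoprotein of plasma and matrix that brain pericytes also make. Its levels were 9.37, 9.23, 9.53, 9.03 and 9.13 in the knockout, against 9.64, 9.46, 9.45, 9.37 and 9.16 in wild type. The groups overlapped, with knockout array 3 above 4 of the wild-type arrays. All 11 probe sets of Vtn had lower means in the knockout, by -0.01 to -0.36, and the gene differed by -0.16 (SE 0.11, adjusted p = 0.787). The difference was -0.26 without wild-type arrays 4 and 5, but -0.10 without knockout array 4 and -0.10 without wild-type array 1.

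Among the membrane proteins of endothelial cells, Cldn5 encodes claudin-5, the principal claudin of brain tight junctions. It averaged 6.72 ± 0.12 in knockout and 7.10 ± 0.30 in wild type (SD, n = 5 each) over its 2 probe sets, with arrays at 6.86, 6.64, 6.56, 6.78 and 6.78 against 7.59, 7.04, 6.84, 7.14 and 6.87. Knockout array 1 lay between wild-type arrays 3 and 5, and the other knockout arrays were below all wild-type arrays. This was the lowest difference of the 9, -0.37 (SE 0.13, 95% confidence interval -0.67 to -0.08, unadjusted p = 0.0168), and it was not called in the limma fit that admits such genes (adjusted p = 0.739). With all 3 probe sets it was -0.33.

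Pecam1, also known as CD31, is an adhesion molecule at endothelial cell contacts. Knockout arrays 1 to 5 read 6.86, 6.86, 6.96, 6.69 and 6.84, against 7.10, 6.97, 7.04, 6.75 and 6.58 in wild type. Wild-type arrays 1 to 3 were above every knockout array, while wild-type array 5 was below all of them. The difference was -0.05 (SE 0.10, adjusted p = 0.936) with all arrays, 0.0036 without wild-type array 1, and -0.20 (SE 0.08, adjusted p = 0.375) without wild-type arrays 4 and 5.

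Ly6a, the stem cell antigen Sca-1, is a lipid-anchored surface protein of mouse brain capillaries that some leukocytes also carry. It measured 8.46, 8.16, 8.77, 8.26 and 8.46 in the knockout, against 9.14, 8.68, 8.63, 8.48 and 8.31 in wild type. Wild-type array 1 was the highest by a clear step, and the remaining arrays mixed. The gene differed by -0.22 (SE 0.14, adjusted p = 0.776), by -0.10 without wild-type array 1 and by -0.39 (adjusted p = 0.369) without wild-type arrays 4 and 5. Ly6a belongs to a family of similar genes, and 2 further probe sets that name it together with Ly6c2 differed by -0.18 and -0.03.

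Flt1 encodes VEGF receptor 1, which binds VEGF tightly and also exists as a soluble decoy form. Arrays read 7.501, 7.29, 7.00, 7.11 and 7.33 in the knockout, against 7.70, 6.92, 7.41, 7.12 and 7.18 in wild type. All 5 knockout arrays lay within the range of the wild-type arrays. The difference of -0.02 (SE 0.13, 95% confidence interval -0.31 to 0.27) had the opposite sign without wild-type array 1 (0.0868), wild-type array 3 (0.0163), knockout array 3 (0.0414) or knockout array 4 (0.0122). It was -0.10 without wild-type arrays 4 and 5.

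Abcb1a encodes the mouse P-glycoprotein of brain capillaries, an efflux pump that returns many drugs to the blood. Its knockout arrays were at 7.92, 7.92, 8.003, 7.88 and 7.94, against 8.11, 8.09, 8.14, 7.80 and 7.80 in wild type. The wild-type arrays split, with arrays 1 to 3 above all knockout arrays and arrays 4 and 5 below all of them. The SD was 0.05 in the knockout and 0.17 in wild type. The difference was -0.05 (SE 0.09, adjusted p = 0.912) with all arrays and -0.18 (SE 0.06, adjusted p = 0.335) without wild-type arrays 4 and 5. Abcb1b is a close copy of this gene, and probe sets may pick up both.

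Pdgfrb is the PDGF receptor by which endothelial cells recruit and hold pericytes. Its levels were 7.05, 7.09, 7.13, 7.01 and 6.96 in the knockout, against 7.22, 7.34, 6.99, 7.02 and 7.01 in wild type. Wild-type arrays 1 and 2 were above all knockout arrays and the other wild-type arrays lay within them. The difference was -0.07 (SE 0.08, 95% confidence interval -0.24 to 0.11, adjusted p = 0.884), -0.01 without wild-type array 2 and -0.14 without wild-type arrays 4 and 5.

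Leaving out wild-type arrays 4 and 5 still gave 0 called members in limma, but 6 of the 8 then had an unadjusted p under 0.05. Ly6a, Pecam1, Vtn and Abcb1a were lower, beside 9.18% of all genes, and Col4a1 and Col4a2 higher, beside 2.04% of all genes. The median over the 8 members was then -0.16, and that over all genes -0.05 (5573 of 16367 genes higher). Without arrays 4 and 5 of both genotypes 0 members were called, and the differences were -0.35 for Ly6a, -0.17 for Abcb1a, -0.15 for Pecam1, -0.14 for Vtn, -0.09 for Pdgfrb and -0.08 for Flt1. Those of the collagen genes were 0.15 for Col4a1 and 0.23 for Col4a2, with limma adjusted p-values of 0.688 or more for all 8. In that balanced setting only Col4a2 had an unadjusted limma p under 0.05 (0.0421), where 7.14% of all genes did. The other members were at 0.0695 or more. The medians were then -0.12 over the members and -0.05 over all genes.

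Single exons were compared next. No member probe set was called out of 251, where 0.00239% of all 628415 tested probe sets were. At an unadjusted p under 0.05 there were 16 (6.37%, beside 5.97% of all probe sets), of which 15 were higher in the knockout, beside 3.33% of all probe sets, and 1 was lower, beside 2.64%. Col4a1 held 8 of the 15 in its 64 probe sets, Col4a2 6 in its 52, and Flt1 the remaining 1, while the lower one was in Pdgfrb. Groups did not overlap at 4 member probe sets (1.59%), beside 1.1% of all probe sets. The shares over all probe sets include unnamed ones, since 628415 were tested and only 325444 on the array carried a symbol. The count of 16 was 11 without any intensity filter and 26 with a trended and robust prior. By their means 41 of 64 probe sets were higher in Col4a1 (median 0.12) and 39 of 52 in Col4a2 (median 0.15).

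Probe set 4564513 of Col4a1 read 7.99, 7.99, 7.94, 7.96 and 7.61 in the knockout, against 7.07, 7.09, 6.54, 7.34 and 7.33 in wild type. All knockout arrays were above all wild-type arrays, and the difference was 0.82 (SE 0.18, limma adjusted p = 0.640). Probe set 5059139 of the same gene had the largest difference among the members, 1.29 (SE 0.29, adjusted p = 0.669), with 6.41, 5.90, 6.34, 5.34 and 6.46 against 5.56, 5.10, 4.49, 4.80 and 4.04. Its wild-type mean of 4.80 lay below the intensity limit, and knockout array 4 lay below wild-type array 1. A further Col4a1 probe set without overlap, 4844921, differed by 0.60 (SE 0.17). In Col4a2 probe set 5097531 differed by 0.60 (SE 0.20, adjusted p = 0.794), 5494066 by 0.47 and 4954317 by 0.35, the last without overlap of the groups.

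Use of single exons was examined with diffSplice of limma, which asks whether 1 probe set departs from the others of its gene. Col4a1 passed (Simes adjusted p = 0.00141), led by probe set 5059139, which was 1.14 higher in the knockout relative to the other probe sets. That made 1 of 8 tested members, beside 1.69% of all genes. The leading probe set had a wild-type mean of 4.80, below the intensity limit of 4.94. It was kept through its knockout mean of 6.09, so the filter itself favoured a higher knockout value there. Without any intensity filter the count of members that passed was also 1, but which member passed was not recorded. The Col4a1 call ended when each probe set had its own variance (Simes adjusted p = 0.918). It also ended without wild-type array 5, without wild-type arrays 4 and 5, or without arrays 4 and 5 of both genotypes. The stricter intensity limit, which drops the leading probe set, ended it too. The other 7 members had Simes adjusted p-values of 0.384 or more, Col4a2 having the lowest.

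**Figure D2:**
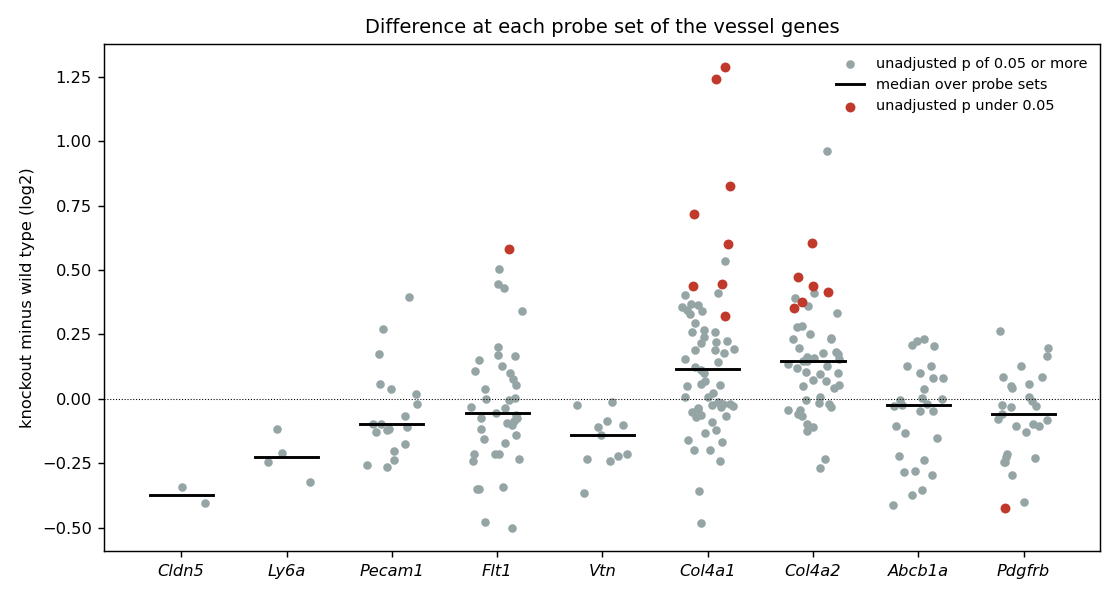
Difference between knockout and wild type (log2, y axis) at each of the 251 probe sets above the intensity limit, by gene. Red points have an unadjusted limma p under 0.05, grey points do not, and the black line is the median of the gene. Red points gather above 0 in Col4a1 (8) and Col4a2 (6), and all 11 Vtn points lie below 0.

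Covariation among the members was measured over the 10 arrays after centring each gene on its genotype mean, since 5 arrays of 1 genotype are too few for a correlation of their own. The p-values come from exact two-sided permutation of the arrays within each genotype (14400 arrangements) and were adjusted over the 28 pairs of the 8 tested members. Of these pairs 18 had r above 0 (64.3%, beside 58% of all pairs of genes), and 4 had r of at least 0.7 (14.3%, beside 7.61%). The median r was 0.25, beside 0.11 over all pairs of genes, and it was -0.01 without wild-type array 1 and 0.19 without wild-type arrays 4 and 5.

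Pecam1 and Vtn passed, with Pearson's r = 0.83 (exact permutation p = 0.000278, adjusted p = 0.00778) and Spearman's rho = 0.84 (exact p = 0.00174, adjusted p = 0.0486). Without the 2 arrays farthest from the Pecam1 median r was 0.71. Abcb1a and Pecam1 also passed, with r = 0.92 (exact permutation p = 0.0025, adjusted p = 0.035) and rho = 0.89 (exact p = 0.00840, adjusted p = 0.118), and r was 0.88 without the 2 farthest arrays. Without wild-type arrays 4 and 5 these pairs were at r = 0.87 and r = 0.80, and neither passed (exact permutation, adjusted p = 0.428 and 0.531). Leaving out wild-type array 5 alone also left 0 pairs. With each gene centred on replicate number as well, r was 0.45 for Pecam1 and Vtn and 0.81 for Abcb1a and Pecam1. That setting allows no exact p below 0.00833, or 0.233 adjusted over the pairs, so no pair could pass it. Ly6a was the partner in the next pairs, with Vtn (r = 0.84, rho = 0.73, exact permutation adjusted p = 0.0583) and with Pecam1 (r = 0.79, rho = 0.65, exact permutation adjusted p = 0.0754).

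These 4 genes, Ly6a, Pecam1, Abcb1a and Vtn, tended to be high and low on the same arrays, with r of 0.64 to 0.92 in all 6 of their pairs. Of these pairs 2 passed, and the 4 genes were grouped after seeing the correlations. After centring, wild-type array 1 was at 0.49 for Ly6a, 0.21 for Pecam1, 0.12 for Abcb1a and 0.22 for Vtn, and wild-type array 5 at -0.34, -0.31, -0.19 and -0.25. Knockout array 3 was their highest knockout array and knockout array 4 lay below the knockout mean in each. Other arrays differed between the genes. Wild-type array 3 was at 0.15 for Pecam1 and Abcb1a but -0.02 for Ly6a, and knockout array 2 at -0.27 for Ly6a but 0.02 for Pecam1.

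The collagen genes did not follow them. Col4a2 had negative r with all 7 other members, from -0.16 with Pdgfrb to -0.67 with Abcb1a (exact permutation adjusted p = 0.462), and none of the 7 passed. Without wild-type arrays 4 and 5 its r with Abcb1a was 0.23 and with Pecam1 -0.0034. Col4a1 and Col4a2, despite their shared start region and like differences between genotypes, had r = -0.26 and rho = -0.24 (exact permutation p = 0.440, adjusted p = 0.649), and 0.05 without the 2 farthest arrays. Col4a1 hardly varied within a genotype, with an SD of 0.06 in knockout and 0.04 in wild type. Flt1 had r between -0.61 and 0.38 with the others, and Pdgfrb between -0.19 and 0.56. With Cldn5, tested among 36 pairs, r was highest for Flt1 at 0.59 (exact permutation adjusted p = 0.531).

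Sequence before the starts of Vtn and Abcb1a is printed from RefSeq (GRCm38.p6) because both genes moved with Pecam1, whose own window is not used here. Capitals mark the TATA box TATAAA, searched on both strands with the boxes named above.
Vtn (chr11:78498970-78499119, plus strand): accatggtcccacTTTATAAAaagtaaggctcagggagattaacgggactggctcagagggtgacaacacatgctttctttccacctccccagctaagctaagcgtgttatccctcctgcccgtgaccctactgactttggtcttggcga
Abcb1a (chr5:8566941-8567090, plus strand): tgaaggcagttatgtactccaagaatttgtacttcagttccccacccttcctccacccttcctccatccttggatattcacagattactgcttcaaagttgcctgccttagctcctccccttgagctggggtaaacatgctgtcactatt
The Vtn window held TATAAA on each strand, overlapping, at 135 and 137 bases before the start, and neither of the other boxes. The Abcb1a window held none of the boxes. Over all windows of this length 7.57% hold a TATA box, and 6 of the 9 members had a window in the table.

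**Figure D3:**
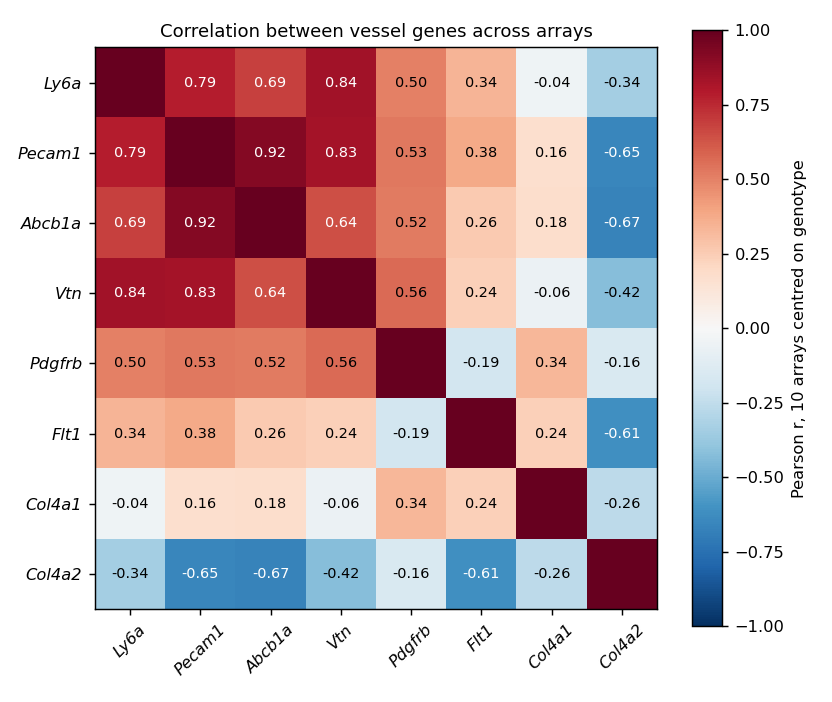
Pearson's r between the 8 tested vessel genes over 10 arrays, each gene centred on its genotype mean, with colour from blue (-1) to red (1) and the value in each cell. Ly6a, Pecam1, Abcb1a and Vtn form a block of 0.64 to 0.92, and the Col4a2 row is negative throughout.

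The genes whose centred levels were most like the mean of the 8 members, over the 10 arrays, were Ttc9 (r = 0.99), the transcription factor gene Zfhx4 (0.98), Th, the tyrosine hydroxylase of dopamine synthesis (0.97), Elmo1 (0.97), the growth factor gene Fgf1 (0.97), Smim15 (0.97), Tbcel (0.97), the kinesin light chain gene Klc2 (0.96), Bloc1s5 (0.96) and the cytoskeletal linker gene Rdx (0.96). None of these 10 is on the vessel lists, and 2623 genes had r of at least 0.7 with that mean. All points share the same 10 arrays, so this is a description of array profiles. Median r with the members' mean was 0.83 for 9 myelin genes, 0.69 for 9 neuronal genes, 0.62 for 12 astrocyte genes and 0.58 for 10 microglial genes. It was 0.30 for 20 other endothelial genes, 0.45 for 20 barrier genes and 0.29 for 12 pericyte genes, beside 0.29 over all other genes. The other vessel lists went both ways. Medians were 0.36 for 12 growth factor receptor genes and 0.25 for 13 Wnt and norrin signalling genes. They were 0.13 for 14 growth factor ligand genes and 0.01 for 10 vitronectin receptor and partner genes. Negative medians were -0.39 for 9 arterial smooth muscle genes, -0.38 for 21 basement membrane genes and -0.35 for 6 endothelial activation genes.

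Other genes of the vessel unit were described by lists of known markers. No gene of any vessel list was called in limma. Of 20 tested endothelial identity genes 14 were lower in the knockout (median -0.08), with Sox18, an endothelial transcription factor gene, at -0.17 (SE 0.09), the sialomucin gene Emcn at -0.21 (SE 0.11) and Clec14a at -0.18 (SE 0.11), each with an adjusted p of 0.718 or more. Of 12 pericyte and mural genes 8 were lower (median -0.04), with Ndufa4l2 at -0.27 (SE 0.10), Mcam at -0.23 (SE 0.09) and Higd1b at -0.18 (SE 0.08). These 3, picked for the smallest p, were at an unadjusted limma p under 0.05, where 4.14% of all genes were lower. Other lists held such genes too, as the barrier list did with 2 higher ones. Arterial smooth muscle genes were lower in 8 of 9 (median -0.12), with Des at -0.18, Tpm2 at -0.13 and Myl9 at -0.12, but in 4 of 9 without wild-type arrays 4 and 5 (median 0.03).

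Barrier transporter and junction genes had a median of -0.02, with 8 of 20 higher. The list's largest differences were upward. Slc2a1, the glucose transporter of the barrier, was at 9.78, 10.05, 9.93, 10.08 and 9.97 in the knockout, against 10.05, 9.54, 9.60, 9.56 and 9.58 in wild type. All knockout arrays exceeded 4 of the wild-type arrays, while wild-type array 1 was above 4 of the knockout arrays. The difference was 0.30 (SE 0.10, limma adjusted p = 0.693). Mfsd2a, the lipid transporter that holds down transcytosis in barrier endothelium, differed by 0.30 (SE 0.12, adjusted p = 0.693) and the amino acid transporter gene Slc38a5 by 0.15 (SE 0.12).

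Among 21 other basement membrane and collagen assembly genes 14 were lower and 7 higher (median -0.06), so the 2 collagen members did not have the sign of most of this list. Nid2, a nidogen that links laminin to collagen IV, differed by -0.18 (SE 0.08), its relative Nid1 by 0.12 (SE 0.08) and the laminin chain gene Lamc1 by 0.12 (SE 0.07). Vitronectin receptors and partners were lower in 6 of 10 (median -0.01), with the integrin genes Itgb3 at -0.18 (SE 0.08) and Itgb5 at -0.13 (SE 0.09), and the protease gene Plau at -0.09 (SE 0.08). Growth factor ligands were evenly divided, 7 of 14 higher (median -0.0045), with Tgfb1 at -0.25 (SE 0.10), Apln at -0.24 (SE 0.12) and Vegfd at 0.22 (SE 0.12). Their receptors were lower in 10 of 12 (median -0.10), with S1pr1 at -0.19 (SE 0.09), Tgfbr2 at -0.14 (SE 0.08) and Acvrl1 at -0.12 (SE 0.08). Kdr, Tek, Tie1 and Eng are on both the receptor list and the endothelial identity list, so those counts are not separate.

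Genes of Wnt and norrin barrier signalling were higher in 7 of 13 (median 0.03), but in 4 of 13 without wild-type arrays 4 and 5 (median -0.09). Members of the list included the Wnt inhibitor gene Apcdd1 at 0.23 (SE 0.09), Lef1 at -0.14 (SE 0.07) and Reck at -0.11 (SE 0.08). Endothelial activation genes were higher in 3 of 6 with all arrays (median 0.06) and without wild-type arrays 4 and 5 (median -0.06). They included the acute phase gene Lcn2 at 0.53 (SE 0.19, limma adjusted p = 0.693), Icam1 at -0.18 (SE 0.10) and Selp at -0.15 (SE 0.10).

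Most myelin, neuronal, astrocyte and microglial markers moved with the mean of the 8 members across arrays, and their part in these results was not tested. Single genes had r from 0.65 to 0.91 for myelin, 0.15 to 0.88 for microglial, -0.21 to 0.90 for astrocyte and -0.59 to 0.93 for neuronal genes. The members' mean is unscaled, so members that vary more between arrays weigh more in it. Median r with that mean was 0.70 for 3 red cell genes (range -0.60 to 0.84) and 0.50 for 6 hypothalamic genes (range -0.81 to 0.75). It was 0.19 for choroid plexus, 0.01 for fibroblast and meningeal, -0.06 for perivascular macrophage and -0.38 for leukocyte genes. As list means centred over the 10 arrays, the 8 members ranged from -0.11 to 0.07 in knockout and from -0.12 to 0.20 in wild type. Myelin genes ranged from -0.39 to -0.02 in knockout and from -0.42 to 0.50 in wild type, and neuronal genes from -0.08 to 0.08 in knockout and from -0.18 to 0.19 in wild type. Wild-type array 1 was the highest wild-type array for the members, the astrocyte list, the myelin list and the neuronal list. Lists were lower in the knockout in 9 of 9 myelin, 9 of 12 astrocyte and 10 of 10 microglial genes (medians -0.28, -0.06 and -0.05), and in 3 of 9 neuronal genes (median 0.06), or 5 of 9 without wild-type arrays 4 and 5. The medians without those arrays were -0.47 for myelin, -0.16 for astrocyte, -0.15 for microglial and -0.0018 for neuronal genes.

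Red cell, meningeal and neighbouring tissue markers were checked beside them. Hbb-b1, a beta-globin gene with near-identical copies, averaged 7.58 ± 0.37 in knockout and 9.39 ± 0.44 in wild type (SD, n = 5 each). It was called lower at -1.81 (SE 0.20, limma adjusted p = 0.00315), whereas the red cell genes Slc4a1 and Alas2 differed by -0.12 (SE 0.08) and -0.09 (SE 0.14). Choroid plexus genes were lower in 10 of 10 (median -0.23), ranging from -0.67 to 0.62 in knockout and from -0.49 to 0.65 in wild type. Hypothalamic genes were lower in 6 of 6 (median -0.56), with list means from -0.45 to -0.19 in knockout and from 0.05 to 0.78 in wild type. These list means did not overlap, nor did those of the red cell list (-0.43 to -0.27 against 0.04 to 0.67). The red cell list had 3 tested genes including Hbb-b1, and the groups overlapped for both Slc4a1 and Alas2. How often list means separate in this way was not tested. Pmch differed by -1.88 and Oxt by -0.63, each without overlap of the groups, which held for 1.55% of all genes. Wild-type Pmch was split, at 7.59, 7.19 and 7.40 on arrays 1 to 3 but 5.41 and 5.35 on arrays 4 and 5. Its knockout arrays lay between 4.34 and 4.93. Sim1 differed by -0.49, with overlap. Lower means were also found in 7 of 10 fibroblast and meningeal genes (median -0.06), 3 of 5 leukocyte genes (median -0.08, or 1 of 5 without wild-type arrays 4 and 5) and 4 of 5 perivascular macrophage genes (median -0.03). With all arrays no gene of these lists except Hbb-b1 was called. Without wild-type arrays 4 and 5, 1 red cell and 1 hypothalamic gene were called, among 5 of all genes tested.

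**Figure D4:**
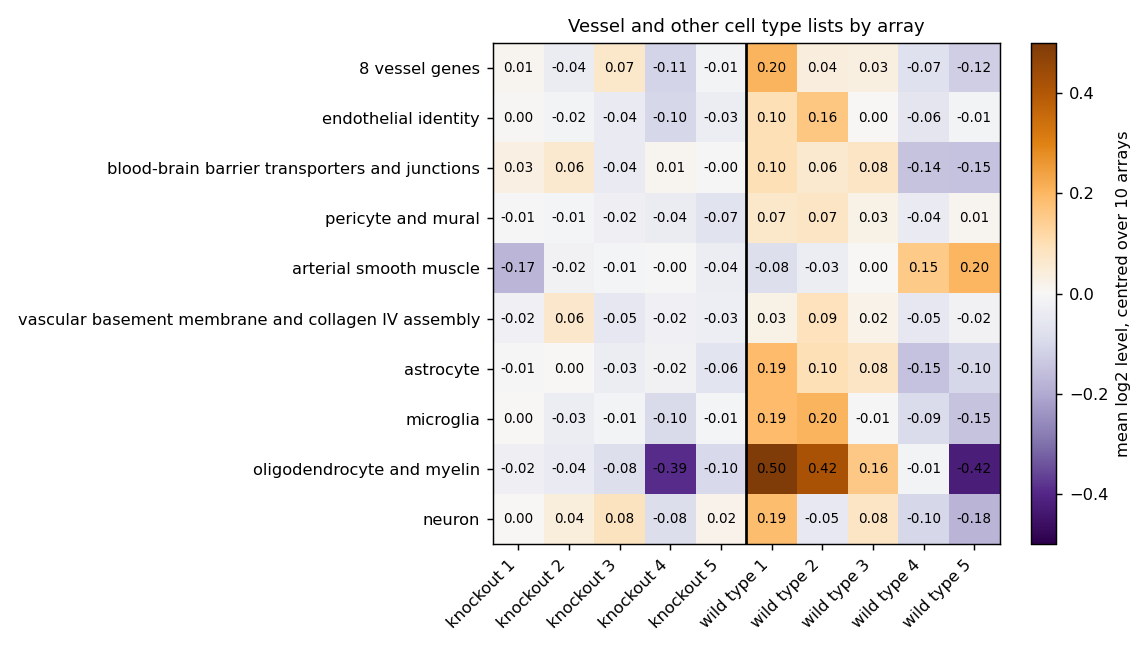
Mean log2 level of each gene list on each array, centred over the 10 arrays, with knockout arrays left of the line and wild-type arrays right of it; rows are lists and the number in each cell is its value. Wild-type array 1 is high and wild-type array 5 low for the 8 vessel genes, and the myelin row shows the same at 0.50 and -0.42.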

How the data were processed

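The deposited table holds log2 values for every probe set on each array. The authors made them with RMA, run in Expression Console from Affymetrix, per the labels. No version and no genome build of the array annotation was found in those labels. Quantile normalization within RMA forces arrays to a like distribution, so only relative changes can be seen. Arrays give no read depth, and precision is limited by 5 arrays per genotype. Of 1256831 probe sets, 318760 had 1 symbol in the platform annotation, and symbols were updated through RefSeq synonyms (GRCm38.p6).

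Gene levels were means over at least 3 probe sets above the intensity limit (16367 genes). They were compared with limma version 3.58.1 (R 4.3.3, with the data.table package at 1.17.8) without covariates and with Benjamini-Hochberg adjustment over all genes or probe sets. The tests were checked on simulated data. P-values measure the spread between arrays. Genes named were the 9 members, up to 3 of smallest p in each of 20 lists (212 of 237 list genes tested), up to 3 probe sets of each member, the 10 most similar genes, and Klk8. Members and lists were chosen with earlier results of these data known. Alternatives were another normalization, centring, filters, array weights, a trended and robust prior, the median over probe sets, fewer probe sets per gene, a replicate block, and arrays left out.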

Additional observations from a re-analysis of the deposited data

Results flagged for a closer look

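No vessel gene of the 9 had an array far from the other 4 of its genotype. Among 158 groups checked (79 named genes in 2 genotypes), 7 had 1 such array, and chance flags about 1 in 20. Slc2a1 was at 10.05 on wild-type array 1, above 9.60 on the next. Tpm2 was at 5.58 and Lef1 at 6.45 on knockout array 3, each the lowest of its group. Igf2 and Slc6a13, which mark meningeal cells, were highest on wild-type array 2, at 8.02 and 7.45. Aqp1, a choroid plexus gene, was at 6.28 on knockout array 2, the highest of its group. Stmn2, a neuronal gene, was at 9.37 on wild-type array 3, above the other wild-type arrays.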

How the results depend on the processing

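The count of called vessel genes stayed at 0 in 21 other settings, with member differences at adjusted p-values of 0.284 or more, and the count of called member probe sets stayed at 0 wherever it was rerun. The median difference over the members was negative in all 21, at -0.16 without wild-type arrays 4 and 5 and -0.10 to -0.01 with 1 array left out. Flt1 ranged from -0.11 to 0.0868 and Pecam1 from -0.13 to 0.0036 when 1 array was left out. The count of members with changed exon usage was 0 with the stricter intensity filter, without wild-type arrays 4 and 5, without arrays 4 and 5 of both genotypes and with a separate variance, and 0 to 1 when 1 array was left out. The count of correlated pairs was 2, but 6 with arrays centred on their median, 6 without the filter, 1 with the stricter filter, 1 by Spearman's rho, 0 with the median over probe sets, 0 without wild-type arrays 4 and 5, and 0 to 4 when 1 array was left out. The cause was not tested. Same-numbered arrays of the genotypes correlated at 0.08 to 0.41 in their deviations, and 4 of 5 wild-type arrays correlated best with their own number. This hint comes from the data, the labels give the numbers no meaning, and number 2 lay at 0.08, so the numbers were not used as a block in the reported tests. With a replicate block 0 pairs of members were correlated, where none could pass, 0 members were called, and 3 of all genes were called, against 4 without it. The setting without arrays 4 and 5 of both genotypes and counts of list members lower without wild-type arrays 4 and 5 were added after seeing the data: 18 of 20 endothelial and 9 of 12 pericyte genes, but 4 of 9 smooth muscle, 1 of 5 leukocyte and 5 of 9 neuronal genes. Of all genes 10794 of 16367 were lower there. Without arrays 4 and 5 of both genotypes the counts were 16 of 20, 9 of 12, 5 of 9, 2 of 5 and 5 of 9 in the same order, beside 10758 of 16367 genes. Cldn5 rests on 2 kept probe sets, and 25 list genes had too few to be tested.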
